A study of Mus musculus with 9 samples.

Results

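*Fn1*, *Thbs1*, *Tgfbi*, *Ecm1*, *Sdc4*, *Cd44*, *Cd47*, and *Tgm2* are 8 of the 50559 genes counted in myeloid cells of dystrophic mouse quadriceps. They encode fibronectin, thrombospondin 1, further proteins of the extracellular matrix (ECM), the surface receptors that bind them, and an enzyme that crosslinks them. The 8 genes were taken by symbol and had been selected with the measured values of all 3 comparisons already known, so that their changes are given as a description and their number past a threshold is no evidence in itself. All 8 were among the 16618 genes that passed the low-count filter. The cells came from *mdx* mice, which lack dystrophin and model Duchenne muscular dystrophy, and which were 4.5 weeks old at collection. The mice received for 7 days either vehicle, spironolactone (an antagonist of the mineralocorticoid receptor), or prednisolone (an agonist of the glucocorticoid receptor). Each group had 3 libraries, and each library held sorted CD45+CD11b+ cells pooled from 3 pairs of quadriceps. The sort was on CD45, carried by leukocytes, and CD11b, carried by macrophages, monocytes, and neutrophils. Dead cells were not gated out in the sort, and all groups carried the *mdx* mutation, so that no healthy muscle enters these comparisons.

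Fibronectin is a secreted glycoprotein that cells pull into fibrils through integrins and syndecans, and the fibrils serve as a scaffold for collagen and for latent TGF-beta. Thrombospondin 1 is a matricellular protein, which means that it sits in the matrix mainly to signal, and it binds CD47 and CD36 and can activate latent TGF-beta. In injured muscle, macrophages both secrete such proteins and read them through receptors such as CD44, and in dystrophic muscle fibronectin accumulates where fibers are replaced by fibrosis.

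The libraries held 31469815 to 32943512 counts on genes, and normalization factors ranged from 0.980 to 1.03. The myeloid genes *Ptprc*, *Itgam*, *Adgre1*, *Fcgr1*, *Csf1r*, *Cd68*, *Lyz2*, and *Cd14* were detected in all libraries, with a summed level of 16522 to 19788 CPM (counts scaled to the normalized library total). Markers of other cells were present too. The summed level of 10 neutrophil genes was 4293 CPM in vehicle replicate 3 and 3182 CPM in spironolactone replicate 3, against 392 to 1035 CPM in the other 7 libraries, and these 2 libraries stand apart in this respect. Fewer cells of a type and less RNA per cell cannot be told apart in such bulk libraries. Nothing in the labels gives a sequencing batch.

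By position on the mm39 (GRCm39) genome, 4 of the 8 genes lie on chromosome 2, where *Thbs1* spans 117941974 to 117957616 on the plus strand. *Cd44* (102641486 to 102732010), *Tgm2* (157958322 to 157988359), and *Sdc4* (164266025 to 164285807) lie on the minus strand of the same chromosome. *Fn1* occupies 71624673 to 71692419 of chromosome 1 on the minus strand, and *Ecm1* 95640761 to 95646943 of chromosome 3 on the minus strand. *Tgfbi* (chromosome 13, 56757336 to 56787375) and *Cd47* (chromosome 16, 49620896 to 49735373) are on the plus strand. Exons of *Tgm2* share 370 bases, or 7.74% of their length, with the protein-coding gene *Rprd1b* on the opposite strand. Exons of *Fn1* share 429 bases (2.71%) with *Apol7d*, and those of *Thbs1* share 511 bases (7.91%) with *Gm13986*, both noncoding RNA genes on the opposite strand. Those of *Cd47* share 378 bases (4.31%) with *Gm4633*, also noncoding and on the opposite strand. The strand setting of the counting is not given in the sources used here, so that reads over these bases cannot be assigned to one gene. *Tgm2* exons also share 633 bases (13.2%) with *Gm20412*, an opposite-strand noncoding gene that was not among the genes counted. Exons of *Ecm1* share 63 bases (1.58%) with *Mir7014*, a microRNA gene on the same strand that was counted. They also share 286 bases (7.2%) with *Gm65204*, and those of *Cd44* share 207 bases (3.1%) with *Gm57471*. Both of these are opposite-strand noncoding genes that were not counted. *Tgfbi* and *Sdc4* overlap no annotated gene.

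Promoters of 5 of the 8 genes (*Tgfbi*, *Ecm1*, *Sdc4*, *Cd44*, and *Cd47*) were matched in RefSeq on GRCm38.p6, a build older than that of the counts. The 250 bases before the start of *Ecm1*, the gene with the smallest adjusted *P* among the 8 with prednisolone, and of *Sdc4*, the syndecan of the group, are shown because *Ecm1* alone of the 5 held an AP-1 motif and *Sdc4* held the most GC boxes. Capitals mark an AP-1 motif (TGAGTCA, or TGACTCA on the other strand) and the GC box (GGGCGG on either strand), which is the motif bound by SP1. *Ecm1* is read from the minus strand of chr3:95739570-95739819 and *Sdc4* from the minus strand of chr2:164443189-164443438, both written 5′ to 3′.
Ecm1: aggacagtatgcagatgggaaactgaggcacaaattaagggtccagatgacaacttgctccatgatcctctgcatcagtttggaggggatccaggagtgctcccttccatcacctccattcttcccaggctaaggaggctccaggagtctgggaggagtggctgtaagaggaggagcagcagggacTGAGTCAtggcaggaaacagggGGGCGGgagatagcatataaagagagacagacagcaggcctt
Sdc4: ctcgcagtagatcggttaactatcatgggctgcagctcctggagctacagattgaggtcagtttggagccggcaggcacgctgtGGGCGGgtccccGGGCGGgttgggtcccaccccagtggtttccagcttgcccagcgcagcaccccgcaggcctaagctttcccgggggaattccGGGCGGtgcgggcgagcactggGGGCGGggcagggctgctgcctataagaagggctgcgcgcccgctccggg
In *Ecm1* the AP-1 motif starts 64 bases before the start, a GC box 42 bases before it, and the letters TATAAA 27 bases before it. *Sdc4* has 4 GC boxes, *Cd47* has 2, *Tgfbi* has 1, and *Cd44* has none. Among 32817 promoter windows of the same length, 4.46% held the AP-1 motif, 32.7% a GC box, and 12.4% TATAAA on either strand. None of these 5 promoters held the steroid receptor palindrome (AGAACA, any 3 bases, TGTTCT), which was in 0.00914% of all windows. GC content was 54.0% in *Ecm1* and 68.0% in *Sdc4*, against a median of 52.4% over all windows. A match describes the letters in the window and not a bound site.

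By RNA level per length, *Tgfbi*, *Thbs1*, and *Fn1* led the group in vehicle libraries. Levels per length (TPM, counts divided by the summed exon length and scaled to the same total in each library) averaged 1664 for *Tgfbi*, 1478 for *Thbs1*, and 1022 for *Fn1*. *Cd44* (567 TPM), *Ecm1* (514 TPM), and *Tgm2* (420 TPM) followed, and *Sdc4* (88.2 TPM) and *Cd47* (72.8 TPM) were the lowest. The vehicle libraries of neighbors in this order overlapped for *Tgfbi* and *Thbs1*, for *Cd44* and *Ecm1*, and for *Ecm1* and *Tgm2*, and did not overlap for the other neighbors. By TPM, among the 40303 genes with an exon length, *Fn1* ranked between place 62 and 69 in prednisolone libraries. Its place was between 99 and 162 in vehicle libraries and between 151 and 251 in spironolactone libraries. The order itself differed by treatment, with *Fn1* (1603 TPM) above *Thbs1* (1184 TPM) in prednisolone and *Thbs1* (829 TPM) and *Fn1* (689 TPM) overlapping in spironolactone libraries.

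*Fn1* lay on opposite sides of vehicle with the 2 drugs, lower on average with spironolactone and higher with prednisolone. The *Fn1* level was 3889.7, 3904, and 3167 CPM in the vehicle libraries. It was 2080.3, 3203, and 2191 CPM with spironolactone and 6068, 5005, and 5189 CPM with prednisolone. All prednisolone libraries lay above all vehicle libraries, whereas spironolactone replicate 2 lay within the vehicle range and the other 2 spironolactone libraries lay below it. Group means were 3654 ± 421 CPM (SD, n = 3) in vehicle, 2491 ± 619 CPM in spironolactone, and 5421 ± 568 CPM in prednisolone.

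The log2 fold change of *Fn1* was -0.55 ± 0.16 (SE) with spironolactone (edgeR adjusted *P* = 0.217) and 0.57 ± 0.16 with prednisolone (edgeR adjusted *P* = 0.0922). Neither passed the threshold of 0.05 in edgeR, and both passed it in DESeq2 (adjusted *P* = 0.0223 and 0.00754). Without spironolactone replicate 2, the change with spironolactone was -0.78 (edgeR adjusted *P* = 0.0469) and that with prednisolone had an edgeR adjusted *P* of 0.0374. Neither passed in the other 8 fits without 1 library, in which the change with spironolactone was -0.44 without spironolactone replicate 1 and -0.47 (adjusted *P* = 0.654) without replicate 3. Between the drugs, *Fn1* was lower with spironolactone than with prednisolone (log2 fold change -1.12 ± 0.16, edgeR adjusted *P* = 0.00254). The libraries of the drugs did not overlap, and every fit that left out 1 library kept this difference past the threshold (adjusted *P* 0.0011 to 0.0186).

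**Figure D1:**
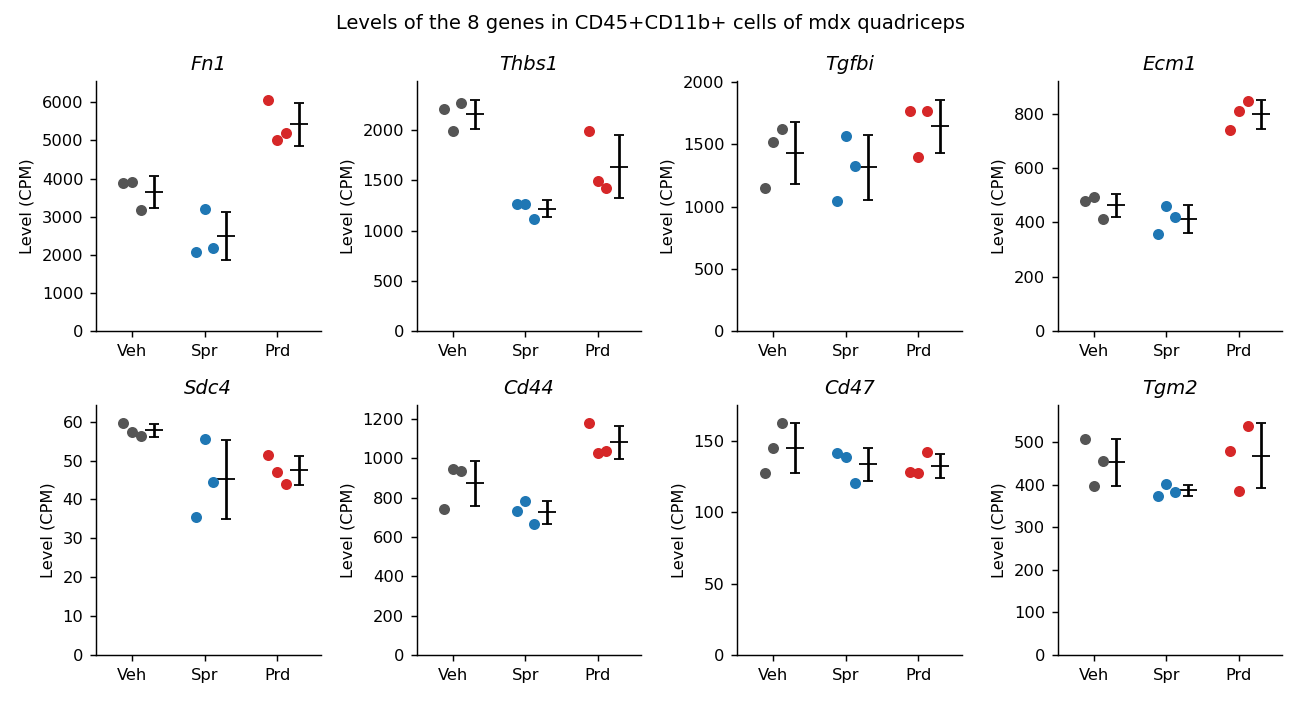
Level in CPM of each of the 8 genes in each library of the vehicle (Veh), spironolactone (Spr), and prednisolone (Prd) groups. Points are libraries in the order of their replicate numbers, and the bar beside them is the group mean ± SD (n = 3). For *Fn1* the 3 prednisolone libraries sit at 5005 to 6068 CPM, above all others.

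*Ecm1*, which encodes a secreted glycoprotein that binds other matrix proteins, differed between the drugs as *Fn1* did but was close to vehicle with spironolactone. The *Ecm1* level was 480, 495, and 414 CPM in vehicle, 358, 460.0, and 421 CPM in spironolactone, and 740, 808, and 846 CPM in prednisolone libraries. The prednisolone libraries stood apart from all 6 others, and the ranges of vehicle and spironolactone overlapped. Compared with vehicle, *Ecm1* had a log2 fold change of 0.79 ± 0.11 with prednisolone (edgeR adjusted *P* = 0.00376) and of -0.17 ± 0.11 with spironolactone (edgeR adjusted *P* = 0.700). With spironolactone compared with prednisolone it was -0.95 ± 0.11 (edgeR adjusted *P* = 0.000588). Both differences from prednisolone stayed past the threshold in each of the 8 other analyses and in each of the 9 fits without 1 library.

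*Tgfbi* encodes a secreted protein that is induced by TGF-beta and binds collagens and integrins. Its levels were 1153, 1519.6, and 1619.8 CPM in vehicle, 1049, 1567, and 1327 CPM in spironolactone, and 1769.6, 1400.0, and 1768 CPM in prednisolone libraries. The ranges of the 3 groups overlapped. *Tgfbi* had a log2 fold change of -0.12 ± 0.16 with spironolactone and 0.20 ± 0.16 with prednisolone, with edgeR adjusted *P* of 0.884 and 0.634. It was -0.32 ± 0.16 between the drugs (edgeR adjusted *P* = 0.256). The sign with spironolactone turned to 0.017 without spironolactone replicate 1, and the change between the drugs was -0.19 in the same fit. The change with prednisolone was 0.069 without vehicle replicate 1.

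*Thbs1* was lower than vehicle with each drug. The vehicle libraries were at 2212, 1997, and 2272 CPM, the spironolactone libraries at 1264.5, 1269, and 1118 CPM, and the prednisolone libraries at 1994, 1489.8, and 1422 CPM. No drug library reached the lowest vehicle library, although prednisolone replicate 1 came within a few CPM of it. All spironolactone libraries also lay below all prednisolone libraries. The change of *Thbs1* was -0.83 ± 0.13 with spironolactone. Its adjusted *P* was 0.0542 in edgeR, 0.0468 in edgeR with the replicate number as a block, and 5.34e-07 in DESeq2. Of the 8 other analyses 5 passed the threshold, and the highest adjusted *P* was 0.077, in limma-voom. With prednisolone the change was -0.40 ± 0.13, with an adjusted *P* of 0.141 in edgeR and 0.0439 in DESeq2. Between the drugs the change was -0.43 ± 0.13 (adjusted *P* = 0.0677 in edgeR, 0.0494 in edgeR with the block, and 0.0132 in DESeq2). Here too 5 of the 8 other analyses passed, with adjusted *P* up to 0.0732. This difference was -0.26 without prednisolone replicate 1 (edgeR adjusted *P* = 0.256), and 1 of the 9 fits without 1 library passed. The 2 comparisons with vehicle share the vehicle libraries. Without prednisolone replicate 1, the *Thbs1* change with prednisolone was -0.57 (edgeR adjusted *P* = 0.0338), against -0.34 without replicate 2 (0.449) and -0.31 without replicate 3 (0.413). With spironolactone its adjusted *P* in edgeR ranged from 0.0321 to 0.212 over the 9 fits without 1 library, of which 4 passed.

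*Cd44*, the main hyaluronan receptor of leukocytes, followed the order of *Fn1*. Its level was 742, 944, and 937 CPM in vehicle, 731, 782, and 664 CPM in spironolactone, and 1179, 1027, and 1039 CPM in prednisolone libraries. The prednisolone libraries lay above all others, and vehicle replicate 1 lay within the spironolactone range. The change of *Cd44* was -0.27 ± 0.11 with spironolactone (edgeR adjusted *P* = 0.488) and 0.31 ± 0.11 with prednisolone (edgeR adjusted *P* = 0.217). Between the drugs, *Cd44* was lower with spironolactone (log2 fold change -0.58 ± 0.11, edgeR adjusted *P* = 0.0122). This difference did not pass the threshold without spironolactone replicate 3 (adjusted *P* = 0.0684), without prednisolone replicate 1 (0.0634), or without the 2 libraries of high neutrophil RNA (0.0712).

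*Sdc4* encodes syndecan 4, a heparan sulfate proteoglycan that acts beside integrins as a fibronectin receptor. Its level was 59.6, 57.3, and 56.4 CPM in vehicle, 35.5, 55.7, and 44.4 CPM in spironolactone, and 51.5, 47.0, and 43.9 CPM in prednisolone libraries. All 6 drug libraries lay below the vehicle libraries, which varied little (SD 1.65 CPM). Its log2 fold change was -0.36 ± 0.13 with spironolactone and -0.28 ± 0.13 with prednisolone, and neither passed the threshold (edgeR adjusted *P* = 0.416 and 0.354). The change with spironolactone was -0.53 without spironolactone replicate 2 and -0.21 without spironolactone replicate 1. Between the drugs *Sdc4* differed by -0.07 ± 0.13, less than the spread of the libraries.

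*Cd47* encodes a receptor of thrombospondin 1 that also binds SIRP-alpha on phagocytes and restrains engulfment. Its 9 libraries ranged from 121 to 163 CPM, and the groups overlapped in all comparisons. Its log2 fold change was -0.12 ± 0.10 with spironolactone and -0.13 ± 0.10 with prednisolone (edgeR adjusted *P* = 0.795 and 0.643). *Tgm2* encodes transglutaminase 2, which crosslinks fibronectin and also binds it at the cell surface. Its level was 506, 396, and 456 CPM in vehicle, 374, 401, and 383 CPM in spironolactone, and 479, 386, and 538 CPM in prednisolone libraries. The groups overlapped in all comparisons, and the log2 fold changes of *Tgm2* were -0.23 ± 0.12 with spironolactone and 0.05 ± 0.12 with prednisolone (edgeR adjusted *P* = 0.607 and 0.911).

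**Figure D2:**
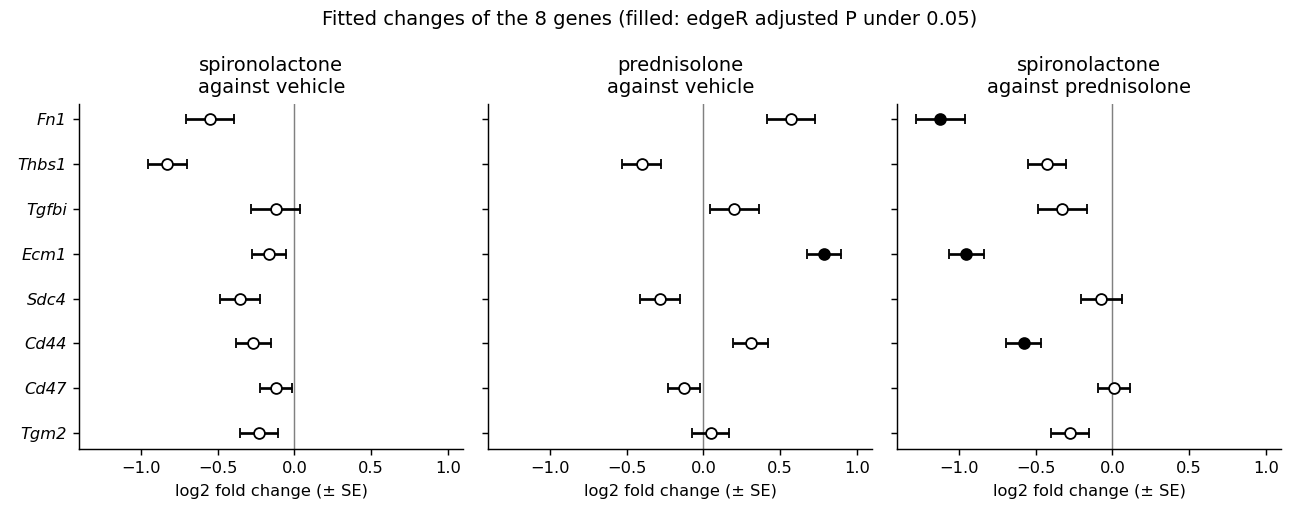
Log2 fold change ± SE of each of the 8 genes in the 3 comparisons, from the fit of all 9 libraries. Filled points have an edgeR adjusted *P* under 0.05, which are *Ecm1* with prednisolone and *Fn1*, *Ecm1*, and *Cd44* between the drugs.

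Counted over the group, all 8 log2 fold changes were below 0 with spironolactone, with a median of -0.25 against 9.0e-05 over all genes tested. EdgeR called 0 of the 8 genes (0.0181% of all genes tested), with 4 at an unadjusted *P* under 0.05 (1543 of 16618 genes, 9.29%), and DESeq2 called 2 (1.67% of all genes). Libraries did not overlap for 2 of the 8 genes, *Thbs1* and *Sdc4*, against 13.5% of all genes. With prednisolone, 5 changes were above 0 and 3 below, with a median of 0.12 against -0.01 over all genes. EdgeR called 1 of the 8 (1.76% of all genes), DESeq2 called 3 (4.64%), and the libraries of 5 did not overlap (19.7%). Between the drugs, 7 of the 8 changes were below 0, with a median of -0.38 against 0.03 over all genes. EdgeR called 3 (5.17% of all genes), DESeq2 called 4 (10%), and the libraries of 4 did not overlap (30.3%). Since the genes were selected on these same comparisons, nothing is read from the counts.

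Spironolactone replicate 2 was the highest of its group for 7 of the 8 genes, all but *Cd47*, although for *Thbs1* it was level with replicate 1, and replicate 1 was the lowest for 5. Prednisolone replicate 1 was the highest of its group for 5 genes and replicate 2 the lowest for 5, whereas in vehicle the highest library changed from gene to gene, with 2, 3, and 3 genes for replicates 1 to 3. The same spironolactone replicate 2 had the lowest summed level of 14 fibro-adipogenic genes in its group (1413 CPM, against 1931 and 1910.5 CPM in replicates 1 and 3) and the lowest level of 12 endothelial genes (175 CPM, against 271 and 212 CPM). Their part in the levels of the 8 genes was not tested.

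**Figure D3:**
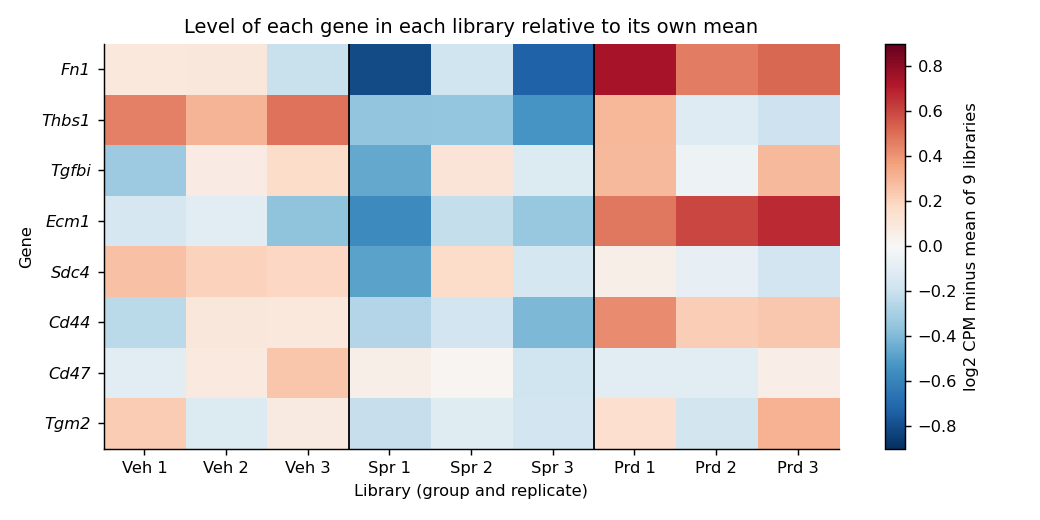
Log2 CPM of each gene in each library minus the mean of that gene over the 9 libraries, with the groups separated by lines. Red is above and blue below the mean of the gene. The row of *Fn1* runs from -0.80 in spironolactone replicate 1 to 0.74 in prednisolone replicate 1.

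Fibroblasts also make fibronectin, and with spironolactone their markers had fold changes of the opposite sign to *Fn1*. Fibro-adipogenic progenitors are the resident fibroblast-like cells of muscle. All 14 genes of their list, which includes *Pdgfra*, *Dcn*, and the fibrillar collagens *Col1a1* and *Col3a1*, had a log2 fold change above 0 with spironolactone, with a median of 0.52 and 0 called by edgeR (9 at an unadjusted *P* under 0.05, 3 called by DESeq2), against 0.0181%, 9.29%, and 1.67% of all genes. With prednisolone the median was 0.12 and 12 of 14 were above 0, against 0.06 and 8 of 14 without vehicle replicate 1. The summed level was 1173 to 1521 CPM in vehicle, 1413 to 1931 CPM in spironolactone, and 1469 to 1542 CPM in prednisolone libraries. Every gene of the list was detected in every library, and which cells this RNA came from was not tested. The ratio of *Fn1* to *Col1a1*, both in TPM, was 7.02, 5.28, and 4.48 in vehicle, 2.15, 4.81, and 2.45 in spironolactone, and 9.09, 7.46, and 6.64 in prednisolone libraries. *Fn1* was lowest in the 2 libraries with the most fibro-adipogenic RNA.

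The levels of other marker lists were also compared across the groups. All 12 endothelial genes were above vehicle with spironolactone (median log2 fold change 1.22, 1 called by edgeR and 9 by DESeq2, against 0.0181% and 1.67% of all genes), with summed levels of 175 to 271 CPM against 79.98 to 128 CPM in vehicle. Between the drugs all 12 were higher with spironolactone, with a median of 1.03 and 7 called by edgeR (5.17% of all genes). In the same comparison the fibro-adipogenic genes had a median of 0.34, with 12 of 14 above 0 and 1 called, and the lymphocyte genes a median of 1.72, with 9 of 10 above 0 and 4 called. The fibro-adipogenic median was 0.21 without spironolactone replicate 1. The 8 myeloid genes had medians of -0.04 with spironolactone (6 below 0, 1 called lower by DESeq2, 1.67% of all genes) and 0.02 with prednisolone (3 below 0). EdgeR called 0 of them with either drug (0.0181% and 1.76% of all genes). Between the drugs their median was -0.07, with 6 below 0 and 1 called lower by edgeR (5.17% of all genes). *Itgam* was at 978 to 1170 CPM with spironolactone, 1127 to 1322 CPM in vehicle, and 1281 to 1486 CPM with prednisolone. The 10 monocyte genes had a median of -0.29 with spironolactone, 9 of them below 0, and of -0.18 with prednisolone, 6 below 0. Without 1 vehicle library, the first ranged from -0.50 (replicate 1) to -0.14 (replicate 2) and -0.10 (replicate 3), with 6 genes below 0 in the last 2 fits, and the second from -0.30 (replicate 1) to -0.08 (replicate 3) and -0.0011 (replicate 2). The second was also -0.09 without prednisolone replicate 2. The summed monocyte level followed the order of *Fn1*, with a mean of 2730 ± 237 CPM (SD, n = 3) in spironolactone, 3392 ± 888 CPM in vehicle, and 3916 ± 532 CPM in prednisolone libraries, and the vehicle range of 2384 to 4057.5 CPM overlapped both others. Its genes differed among themselves. With prednisolone the log2 fold changes were 0.93 for *Chil3*, 0.51 for *Vcan*, and 0.48 for *F13a1*, and -0.84 for *Ly6c2* and -1.02 for *Plac8*, none of them called by edgeR. DESeq2 called 1 gene of the list higher with prednisolone (4.64% of all genes). Between the drugs edgeR called *F13a1* lower (-0.88) and *Ace* higher (0.60) with spironolactone (5.17% of all genes). DESeq2 called 1 higher and 3 lower there (10% of all genes). The 12 genes of F4/80hi resident macrophages had medians of 0.04 with each drug (0.0015 to 0.25 with spironolactone and -0.01 to 0.20 with prednisolone without 1 library), and their summed level was 4576 to 5719 CPM in vehicle, 5376 to 6480 CPM in spironolactone, and 4273 to 5205 CPM in prednisolone libraries. These genes went both ways with prednisolone, with 8 above 0 and 4 below. EdgeR called 0 of them (1.76% of all genes), with 5 at an unadjusted *P* under 0.05 (2360 of 16618 genes). DESeq2 called 2 higher (*Lyve1* and *Cd163*) and 1 lower (*Gas6*), against 4.64% of all genes. Between the drugs edgeR called *Gas6*, *C1qb*, and *C1qc* higher and *Lyve1* and *Cd163* lower with spironolactone (5.17% of all genes). The neutrophil genes had a median of -1.62 with prednisolone, which was -0.12 without vehicle replicate 3. With spironolactone their median was -0.02, but 1.93 without vehicle replicate 3 (0 of 10 below 0) and -0.69 without spironolactone replicate 3 (10 of 10 below 0), and between the drugs it was 1.77. The other vehicle libraries, at 392 and 523 CPM in sum, lay among or below the prednisolone libraries at 429.9 to 577 CPM. Skeletal muscle genes had a median of 0.88 with spironolactone and 0.49 with prednisolone, and lymphocyte genes of 0.78 and -0.70, although the summed lymphocyte level was at most 40.2 CPM. The skeletal muscle median with prednisolone was 0.19 without prednisolone replicate 2 and 0.28 without vehicle replicate 1. The lymphocyte median was 0.48 with spironolactone without spironolactone replicate 3, and -1.14 with prednisolone without prednisolone replicate 3. Platelets store thrombospondin 1, and the summed level of the platelet list, 204.5 to 292 CPM, came mostly from *Pf4*. Its median log2 fold change was 0.03 with spironolactone (-0.02 to 0.18 without 1 library) and -0.11 with prednisolone (-0.24 to 0.16). The part of these cells in the results was not tested.

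Most genes of the immediate early and dissociation response, which is induced within minutes by stress such as cell isolation and includes AP-1 subunits, were below vehicle with each drug, as *Thbs1* was. Of 20 such genes, 18 were below vehicle with spironolactone (median -0.34, 0 called by edgeR, 11 at an unadjusted *P* under 0.05, 3 called by DESeq2) and 19 with prednisolone (median -0.45, 8 called by edgeR and 10 by DESeq2). The shares called over all genes were 0.0181%, 9.29%, and 1.67% with spironolactone and 1.76% and 4.64% with prednisolone. Their summed level was 15782 to 16413 CPM in vehicle, 12262 to 12906 CPM in spironolactone, and 8640.1 to 12854 CPM in prednisolone libraries. In the prednisolone libraries the sums were 12854, 10903, and 8640.1 CPM in replicates 1 to 3, the same order as their *Thbs1* levels, and in the spironolactone libraries 12262, 12890 and 12906 CPM, with the highest sum where *Thbs1* was lowest. Without prednisolone replicate 1 the median of the list with prednisolone was -0.53, and without replicate 3 it was -0.34. The mean sum was lower with prednisolone (10799 CPM) than with spironolactone (12686 CPM), whereas mean *Thbs1* was 1635 CPM with prednisolone and 1217 CPM with spironolactone. Whether this response had a part in the level of *Thbs1* was not tested.

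**Figure D4:**
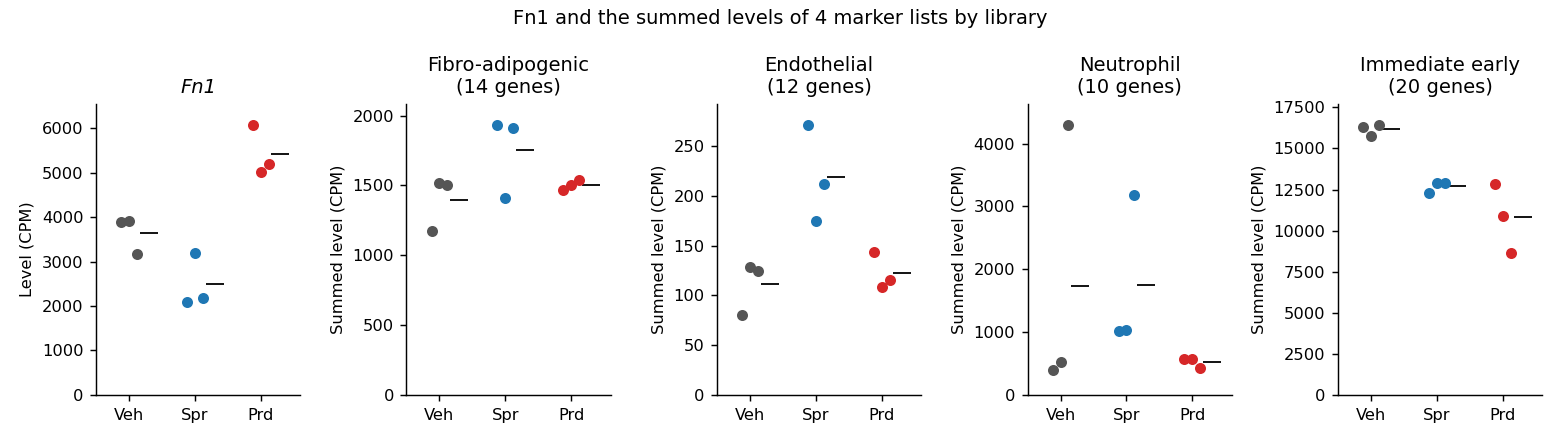
*Fn1* (CPM, left) and the summed CPM of 4 marker lists in each library of the vehicle (Veh), spironolactone (Spr), and prednisolone (Prd) groups, with the group mean as a bar. The mean fibro-adipogenic and endothelial sums are highest in the spironolactone group, where mean *Fn1* is lowest. The fibro-adipogenic sum of spironolactone replicate 2 (1413 CPM) lies within the vehicle range of 1173 to 1521 CPM. The fibro-adipogenic mean is also higher in prednisolone (1505 CPM) than in vehicle (1399 CPM), as *Fn1* is.

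Receptors, ligands, and partners of these proteins were followed in 7 lists of 119 other genes, of which 118 were in the files and 109 passed the filter. With spironolactone edgeR called 0 of them (0.0181% of all genes), with 25 at an unadjusted *P* under 0.05 (9.29% of all genes), and DESeq2 called 11 higher and 1 lower (1.67% of all genes). With prednisolone edgeR called 4 higher and 0 lower (1.76% of all genes), and between the drugs 3 higher and 11 lower with spironolactone (5.17% of all genes). DESeq2 called 9 higher and 2 lower with prednisolone (4.64% of all genes), and 9 higher and 16 lower between the drugs (10%). The median log2 fold change of the 109 genes was 0.06, 0.12, and -0.01 in these comparisons. The edgeR count between the drugs ranged from 5 (without spironolactone replicate 3 or prednisolone replicate 2) to 29 (without vehicle replicate 1). That with prednisolone ranged from 0 (without prednisolone replicate 1 or 2) to 11 (without vehicle replicate 1). Between the drugs, *Itga5*, *Sdc1*, *Actn1*, *F13a1*, and *Ltbp4* were past the threshold in all 9 fits without 1 library, and the other called genes in 2 to 6 of them. With prednisolone, *Actn1* was past it in 6 of these fits, *Sdc1* in 5, *Tnxb* in 3, and *Hmmr* in 2.

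Of 12 fibronectin receptor genes tested, 9 had a log2 fold change below 0 between the drugs, and edgeR called 2 lower with spironolactone than with prednisolone (5.17% of all genes called in either direction). They are the subunits of the classical fibronectin integrin. *Itga5*, its alpha subunit, was at 286 ± 5.12 CPM with spironolactone, 332 ± 2.86 CPM in vehicle, and 391 ± 17.5 CPM with prednisolone, a log2 fold change between the drugs of -0.45 ± 0.08 (edgeR adjusted *P* = 0.00782). *Itgb1*, its beta subunit, was at 409 ± 2.09, 431 ± 14.6, and 515 ± 9.33 CPM in the same order (-0.33 ± 0.08, edgeR adjusted *P* = 0.0316). For both genes the libraries of the 3 groups were fully separated, in the order spironolactone, vehicle, prednisolone, but edgeR called neither against vehicle. Over all genes, libraries did not overlap for 13.5% with spironolactone, 19.7% with prednisolone, and 30.3% between the drugs. DESeq2 called 1 gene of the list higher with prednisolone (4.64% of all genes).

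Of 22 genes of syndecans and focal adhesion proteins, which link these receptors to actin, 13 had a log2 fold change below 0 between the drugs, and edgeR called 4 of them lower with spironolactone (5.17% of all genes called). Against vehicle, 17 were above 0 with prednisolone and edgeR called 2 higher (1.76% of all genes). *Sdc1*, a further syndecan, was at 32.3 ± 8.22 CPM in vehicle, 28.3 ± 2.03 CPM with spironolactone, and 56.7 ± 6.49 CPM with prednisolone. Its log2 fold change was 0.81 ± 0.16 with prednisolone (edgeR adjusted *P* = 0.0263) and -1.001 ± 0.16 between the drugs (edgeR adjusted *P* = 0.00593). The change of *Sdc4* with prednisolone, -0.28, did not pass the threshold (edgeR adjusted *P* = 0.354), and *Sdc1* and *Sdc4* were not compared by a test. *Actn1*, an actin crosslinker of adhesions, rose with prednisolone from 131 ± 17.8 to 188 ± 10.4 CPM (log2 fold change 0.52 ± 0.10, edgeR adjusted *P* = 0.0192) and differed by -0.58 ± 0.10 between the drugs. *Vcl* (vinculin, -0.51 ± 0.10) and *Flna* (filamin A, -0.40 ± 0.10) were also lower with spironolactone than with prednisolone (edgeR adjusted *P* = 0.0135 and 0.0390).

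In the hyaluronan and CD44 system, 11 of 16 genes tested had a log2 fold change below 0 between the drugs, and edgeR called 4 lower with spironolactone (5.17% of all genes called). With prednisolone 11 were above 0 and edgeR called 1 higher (1.76% of all genes). *Spp1*, which encodes the CD44 and integrin ligand osteopontin, was at 6795 ± 1401 CPM with spironolactone and 10974 ± 101 CPM with prednisolone (-0.69 ± 0.16, edgeR adjusted *P* = 0.0274). *Hmmr*, a hyaluronan receptor that is also a mitotic gene, rose with prednisolone from 8.99 ± 2.75 to 15.9 ± 1.04 CPM (0.82 ± 0.19, edgeR adjusted *P* = 0.0443). *Lyve1*, a hyaluronan receptor and marker of resident macrophages, was at 10.3 ± 3.04 CPM with spironolactone and 31.1 ± 9.32 CPM with prednisolone (-1.60 ± 0.34, edgeR adjusted *P* = 0.0338). *Rdx* (radixin), which ties CD44 to actin, differed by -0.29 ± 0.08 between the drugs (edgeR adjusted *P* = 0.0469).

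Of the transglutaminases, 3 of 9 genes were tested, and edgeR called 1 lower with spironolactone than with prednisolone (5.17% of all genes called). *F13a1*, the coagulation factor XIII subunit that crosslinks fibrin and fibronectin and is also on the monocyte list, was at 512 ± 101 CPM in vehicle, 389 ± 46.9 CPM with spironolactone, and 717 ± 59.7 CPM with prednisolone. Its log2 fold change was -0.88 ± 0.14 between the drugs (edgeR adjusted *P* = 0.00359).

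Of 26 other matricellular and matrix proteins, 24 had a log2 fold change above 0 with spironolactone (median 0.47, 0 called by edgeR, 14 at an unadjusted *P* under 0.05, 7 called by DESeq2), against 0.0181%, 9.29%, and 1.67% of all genes. This list shares *Dcn* and *Lum* with the fibro-adipogenic list, whose median was 0.52. Of the 26, edgeR called 1 higher with prednisolone (1.76% of all genes) and 1 higher between the drugs (5.17% of all genes). *Tnxb* (tenascin XB) rose with prednisolone from 11.3 ± 2.06 to 21.7 ± 5.04 CPM (0.95 ± 0.21, edgeR adjusted *P* = 0.0467). *Lgals1* (galectin 1) was higher with spironolactone than with prednisolone (1175 ± 108 and 826 ± 58.6 CPM, 0.51 ± 0.10, edgeR adjusted *P* = 0.0120). Of the 12 thrombospondin family members and receptors tested, 6 were above 0 and 6 below between the drugs, and edgeR called 1 (5.17% of all genes). *Adamts1*, a secreted protease with thrombospondin repeats, was higher with spironolactone than with prednisolone (10.5 ± 1.24 and 5.39 ± 0.703 CPM, 0.96 ± 0.21, edgeR adjusted *P* = 0.0201). Against vehicle, 10 of the 12 were above 0 with spironolactone (median 0.18). EdgeR called 0 and DESeq2 called 2 higher (0.0181% and 1.67% of all genes). Of 18 genes of the TGF-beta axis, 8 were above 0 and 10 below between the drugs, and edgeR called 1 (5.17% of all genes). *Ltbp4*, which binds latent TGF-beta in the matrix, was higher with spironolactone than with prednisolone (43.0 ± 9.004 and 16.0 ± 3.64 CPM, 1.42 ± 0.21, edgeR adjusted *P* = 0.00551). The medians of the TGF-beta list lay between -0.02 and 0.02 in the 3 comparisons.

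**Figure D5:**
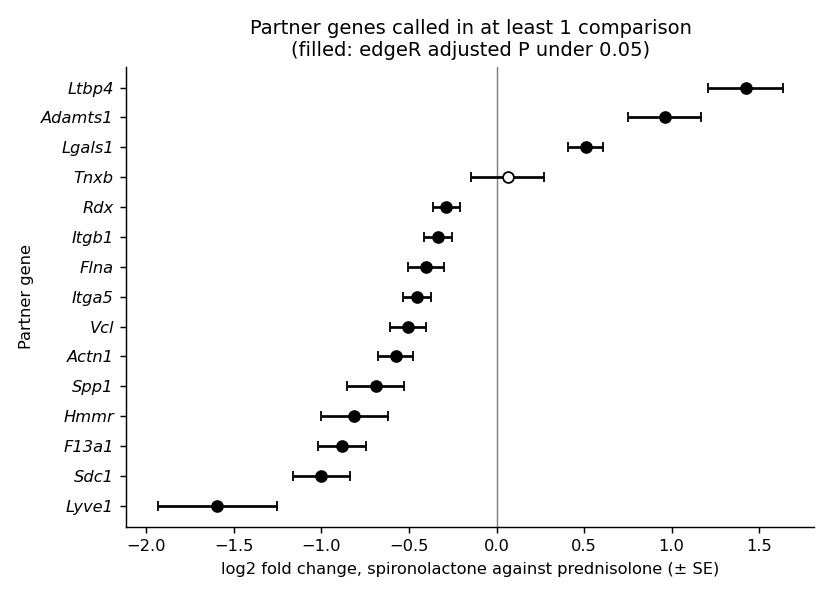
Log2 fold change ± SE between spironolactone and prednisolone of the 15 partner genes that edgeR called in at least 1 comparison. Values below 0 are lower with spironolactone, and *Tnxb* (open point) was called only with prednisolone against vehicle.

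The genes with the pattern most like *Fn1*, by Pearson correlation of log2 CPM over the 9 libraries among 8659 other genes of at least 10 CPM, were *Rap1gds1* (r = 0.97), *Ube3c* (0.97), *Sfxn3* (0.97), *Dab2* (0.97), and *Nol4l* (0.96). Of these, *Dab2*, an endocytic adaptor, was at 919 ± 88.3 CPM in vehicle, 779.7 ± 83.6 CPM with spironolactone, and 1109 ± 89.9 CPM with prednisolone. *Ecm1* stood at place 114 (r = 0.90) and *Cd44* at place 193 (0.87), whereas *Thbs1* stood at place 2486 (0.47). For *Thbs1* the nearest genes were *Fem1c* (r = 0.95), *Rab21* (0.94), *Odc1* (0.94), *Zfp148* (0.94), and *Pag1* (0.93), and *Sdc4* stood at place 383 (0.70). *Odc1*, which encodes the first enzyme of polyamine synthesis, was at 107 ± 8.44 CPM in vehicle, 67.8 ± 4.12 CPM with spironolactone, and 82.9 ± 21.5 CPM with prednisolone. The libraries behind each coefficient share their group, their pool of cells, and their normalization, and the coefficients are a description.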

How the data were processed

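The authors sorted CD45+CD11b+ cells, sequenced their RNA, aligned reads to mm39, and deposited whole-number counts per gene without normalization. The submitters' processing notes name HISAT2 2.2.1, HTSeq 0.11.3, and DESeq2 1.32.0; the strand setting is not given in the sources used here. Lines that name no gene (17.2% to 21.8% of counts per library) were left out, and the deposited tables of the authors' own comparisons were not used.

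All 9 libraries were fitted with edgeR 4.0.16 (R 4.3.3): filterByExpr (minimum count 10, minimum total 15), TMM, robust quasi-likelihood test, two-sided, Benjamini-Hochberg adjustment over 16618 genes, threshold 0.05. The script was tested on simulated data. CPM used TMM-normalized totals. TPM used GENCODE exon lengths, which matched 40303 of 50559 symbols (91.0% to 95.0% of counts). A correlation used log2 CPM with a prior count of 2. Alternatives were DESeq2 1.42.0, limma-voom (limma 3.58.1), edgeR on 2 groups, RLE or library totals, no filter or 10 counts in every library, a replicate block, and fits without each library. A fit without the 2 libraries of high neutrophil RNA was added after seeing the data.

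The 8 genes and all lists were chosen with earlier results of these data known. Named were the 8 genes, each list gene called in any comparison (for a list with none, the 2 with the smallest *P*), and the 5 genes most like *Fn1* and *Thbs1*. Each replicate is a pool of mice, so that *P* values measure the spread between pools. Libraries of a group differed by more than sampling noise (chi-square per degree of freedom 19.7 to 63.8). The level of 1 marker gene is not reported here.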

Additional observations from a re-analysis of the deposited data

Results flagged for a closer look

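Of the 8 genes, 3 differed in their response to the drugs by the direct comparison of spironolactone with prednisolone (edgeR, adjusted over all genes), in which 5.17% of all genes were called. The effect of spironolactone minus that of prednisolone was -1.12 on the log2 scale for *Fn1* (adjusted *P* = 0.00254), -0.95 for *Ecm1* (adjusted *P* = 0.000588), and -0.58 for *Cd44* (adjusted *P* = 0.0122). The call of *Cd44* was lost without spironolactone replicate 3 (0.0684), without prednisolone replicate 1 (0.0634), and without the 2 libraries of high neutrophil RNA (0.0712). All 3 spironolactone libraries were below all 3 prednisolone libraries for each gene. Libraries of the 2 drugs did not overlap, in either direction, for 30.3% of all genes. The genes were selected with these values known.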

How the results depend on the processing

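Of 408 values of the 8 genes under the alternatives other than the added fit, 370 kept their direction and their side of the threshold, 25 newly passed it, 2 no longer passed it, and 11 reversed. All reversals were of changes that no main or alternative analysis called: *Tgfbi* with spironolactone (-0.27 to 0.017 without 1 library), *Tgm2* with prednisolone (-0.065 to 0.17 without 1 library), *Sdc4* between the drugs (-0.25 to 0.075 without 1 library), and *Cd47* between the drugs, where the change of 0.01 became -0.00070 in DESeq2, -0.026 with library totals, -0.0066 without the filter, and -0.035 to 0.077 without 1 library. In the added fit without vehicle replicate 3 and spironolactone replicate 3, *Cd47* with spironolactone became 0.038 (-0.20 at the lowest of the fits without 1 library). With spironolactone, 0 of the 8 genes were called in the main analysis, 2 in DESeq2, 1 in edgeR on 2 groups, 1 with library totals, 2 without the filter, 1 with a replicate block, and 0 to 2 without 1 library. With prednisolone, 1 was called, against 3 in DESeq2, 3 without the filter, and 1 to 2 without 1 library. Between the drugs, 3 were called, against 5 without the filter and 2 to 4 without 1 library. Of the partner genes, the calls with spironolactone were 0, against 12 in DESeq2, 18 without the filter, and 0 to 3 without 1 library. With prednisolone they were 4, against 11 in DESeq2, 2 in edgeR on 2 groups, 15 without the filter, 0 to 11 without 1 library, and 2 in the added fit. Between the drugs they were 14, against 25 in DESeq2, 25 in edgeR on 2 groups, 28 without the filter, 5 to 29 without 1 library, and 5 in the added fit. The cause of these moves was not tested.

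Deviations from the group means correlated by -0.038 to 0.151 between libraries of the same replicate number and by -0.168 to 0.044 between others. The 2 highest values were between vehicle and spironolactone libraries, 0.117 for replicate 1 and 0.151 for replicate 3. Whether libraries of the same number share a batch was not tested. With the replicate block, *Thbs1* passed the threshold with spironolactone (adjusted *P* = 0.0468) and between the drugs (0.0494). With 3 pools per group, a difference that misses the threshold is not shown to be absent.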
